A study of Mus musculus with 18 samples.

Results

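The transcripts of 10 glutathione S-transferase (GST) genes were followed in the livers of 18 mice. The members were chosen by symbol and are Gsta2, Gsta3 and Gsta4 (alpha class), Gstm1, Gstm2 and Gstm3 (mu class), Gstp1 and Gstp2 (pi class), Gstt1 (theta class) and Gstz1 (zeta class). They are 10 of the 52230 genes for which transcript counts were summed, and all 10 were among the 10938 genes with enough counts to be tested.

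The study measured liver RNA of the mouse line GCKR-P446L-EMI-B6N, a knock-in of a proline to leucine substitution in GKRP, the protein that holds glucokinase in the hepatocyte nucleus. PP mice carried the 446P form and LL mice the 446L form of Gckr. Each male group held 4 mice and each female group 5, and every mouse was fed standard chow and gave 1 library. The labels give ages from 9 to 14 weeks for single mice, with male LL mice at 13 or 14 weeks and the other groups spread more widely, while the series text gives 14 weeks for all. Litter and cage were not analysed here.

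GSTs join the tripeptide glutathione to reactive, electrophilic molecules, which makes drugs, toxins and products of lipid peroxidation more soluble and ready for export. The cytosolic enzymes are dimers grouped into classes by sequence, and members of a class often lie side by side on a chromosome as recent duplicates. Liver is rich in these enzymes, and many of their genes respond to the oxidative stress factor NRF2, to the nuclear receptors CAR and PXR, and to the sex-dependent pattern of growth hormone.

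The duplicates matter for the measurement, because a read that fits several copies has to be divided between them by the quantification. Gstp1 (chromosome 19, 4085405 to 4088068, minus strand, GRCm39) and Gstp2 (chromosome 19, 4090285 to 4096023, minus strand) are neighbours. Their full-length coding sequences are both 630 bases long and differ at 12 positions (98.1% identical), with a longest identical run of 300 bases. The starts of the coding sequences, bases 1 to 90, are shown because 6 of the 12 differences lie there. Capitals mark the bases that differ.
Gstp1: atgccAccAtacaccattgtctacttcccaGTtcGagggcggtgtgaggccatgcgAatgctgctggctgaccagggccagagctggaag
Gstp2: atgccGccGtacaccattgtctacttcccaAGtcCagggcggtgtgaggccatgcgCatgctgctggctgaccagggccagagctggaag

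Of the stretches of 31 bases in the annotated transcripts of each gene, 59.8% of those of Gstp2, 59.2% of Gsta2, 37.7% of Gstm3, 36.7% of Gstp1, 27.1% of Gstm1 and 24.5% of Gstm2 also occurred in another gene. The share was 15.3% for Gstz1, 2.74% for Gsta3, 2.07% for Gstt1 and 0.0845% for Gsta4. Gsta2, which shares most with Gsta1, Gsta5 and Gsta13, and the Gstp1 and Gstp2 pair were therefore also read as sums of their near copies.

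Promoter sequences were taken from RefSeq (GRCm38.p6), in which 9 of the 10 members had a promoter entry. The 250 bases before the annotated start are shown for the pi-class pair, because these genes showed the largest differences between the sexes. Capitals mark TGAGTCAGC, an AP-1 site in a compound motif related to the antioxidant response element. It does not match the core element TGACNNNGC that was also searched for. Both windows held it on the strand of the gene, from base -74 to -66 before the start in Gstp1 (chr19:4037913-4038162, minus strand) and from -89 to -81 in Gstp2 (chr19:4042222-4042471, minus strand).
Gstp1: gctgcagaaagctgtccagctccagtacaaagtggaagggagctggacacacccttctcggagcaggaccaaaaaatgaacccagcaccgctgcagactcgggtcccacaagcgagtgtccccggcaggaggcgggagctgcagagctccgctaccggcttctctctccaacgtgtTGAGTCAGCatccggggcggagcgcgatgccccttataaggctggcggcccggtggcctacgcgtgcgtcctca
Gstp2: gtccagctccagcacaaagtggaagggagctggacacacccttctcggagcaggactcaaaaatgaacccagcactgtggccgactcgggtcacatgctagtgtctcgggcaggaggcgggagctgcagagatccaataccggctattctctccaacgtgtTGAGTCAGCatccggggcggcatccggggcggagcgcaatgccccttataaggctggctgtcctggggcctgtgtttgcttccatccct

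Of all 32851 promoters in the table, 0.414% held TGAGTCAGC on either strand, searched over whole entries, which run past the start. The core antioxidant response element TGACNNNGC was found in the promoter of Gsta3 and of no other member, against 12.4% of all promoters. The STAT motif TTCNNNGAA was found in no member promoter, against 8.3% of all promoters.

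Total estimated counts per library ran from 3794671 to 6613905, and the 10 members took 0.278% to 0.503% of them. The fragment length of the libraries was read as the median of length minus effective length over transcripts of at least 3000 bases. It need not be the typical fragment length. In female PP 3 the effective length was 23.0% of the 819 bases of Gstp1-205 but 67.5% of the 806 bases of Gstp1-208. The measure averaged 448 bases (SD 108, n = 5) for PP females against 292 bases (SD 52.1, n = 5) for LL females (p = 0.0159, two-sided exact permutation test). For males the averages were 518 bases (SD 95.7, n = 4) and 407 bases (SD 156, n = 4), respectively (p = 0.286, two-sided exact permutation test). The mitochondrial share of counts was higher in female LL than in female PP mice, at 12.5% and 10.2% (p = 0.0317, exact permutation test), and was highest, at 17.9%, in male LL 1. Summed hepatocyte markers were at 474392 to 875735 normalized counts in every liver, while those of cholangiocytes were at 53 to 137 and those of lymphocytes and other leukocytes at 16 to 64. In bulk liver, fewer cells of a type and less RNA per cell cannot be told apart.

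Levels of different genes were compared per length, as TPM, in which transcript abundance is divided by length and scaled to the same total in each library. In male PP liver the pi class was the largest, with 67.2% ± 16.1 (SD, n = 4) of the summed TPM of the 10 genes. Its share was 36.8% ± 17.0 for LL males (SD, n = 4), and for females 13.3% ± 4.16 with the PP and 13.8% ± 3.95 with the LL genotype (SD, n = 5 each). The alpha class held 15.9% (PP) and 31.2% (LL) among males, and 38.7% (PP) and 36.0% (LL) among females. The mu class held 9.35%, 20.8%, 26.7% and 26.8% in the same order of groups. The shares of the pi class ranged from 46.8% to 83.1% in male PP and from 11.8% to 50.3% in male LL mice, so these groups overlapped.

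**Figure D1:**
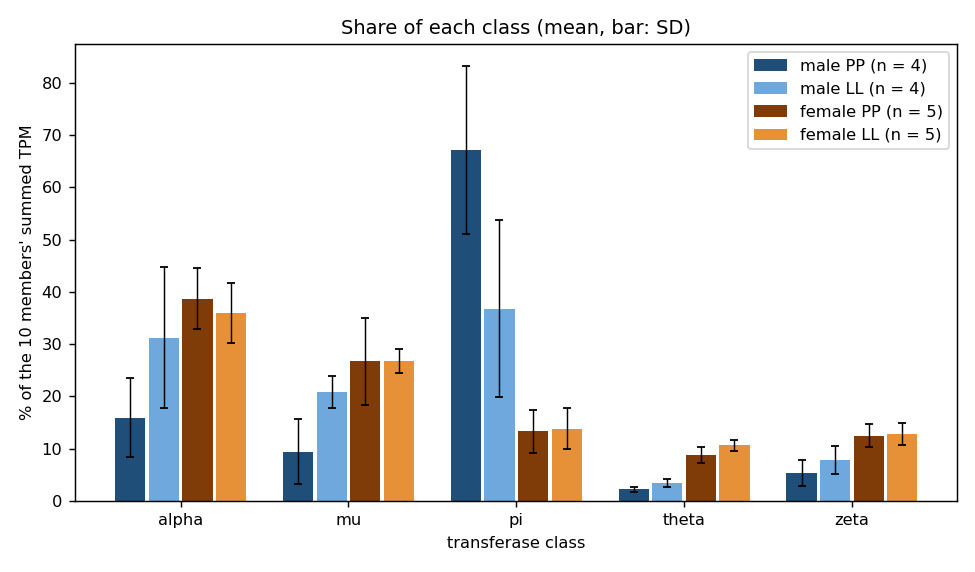
Mean share of each transferase class in the summed TPM of the 10 genes, in percent, for the 4 groups, with bars of 1 SD over mice. The pi class is the tallest bar in both male groups, and the alpha class is the tallest in both female groups, at 38.7% and 36.0%.

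In female PP liver the most abundant member by TPM was Gsta3 (1558 ± 427, SD, n = 5), followed by Gstm1 (1118 ± 505), Gstz1 (538 ± 74), Gstp1 (443 ± 229) and Gstt1 (378 ± 42). In male PP liver it was Gstp1 (3764 ± 1426, SD, n = 4), followed by Gstp2 (1154 ± 1577), Gsta3 (1032 ± 441), Gstm1 (598 ± 404), Gstz1 (368 ± 148) and Gstt1 (153 ± 38). The place of Gstp2 holds for the mean only, as it stood at 1221, 24, 3361 and 12 TPM in male PP 1 to 4. Its median of 622 TPM was below the 956 of Gsta3. The transcripts behind the uneven Gstp2 values are described below. Neighbours in these orders differed by more than the SD of either for Gstm1 and Gstz1 in female PP mice, and for Gstp1 and Gstp2 and for Gstz1 and Gstt1 in male PP mice, but not for the other neighbours. Gstm2, Gsta4, Gsta2 and Gstm3 had group means of 12.4 to 89.9 TPM. All other values are normalized counts, in which each library is scaled by its size factor and a gene is compared only with itself.

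**Figure D2:**
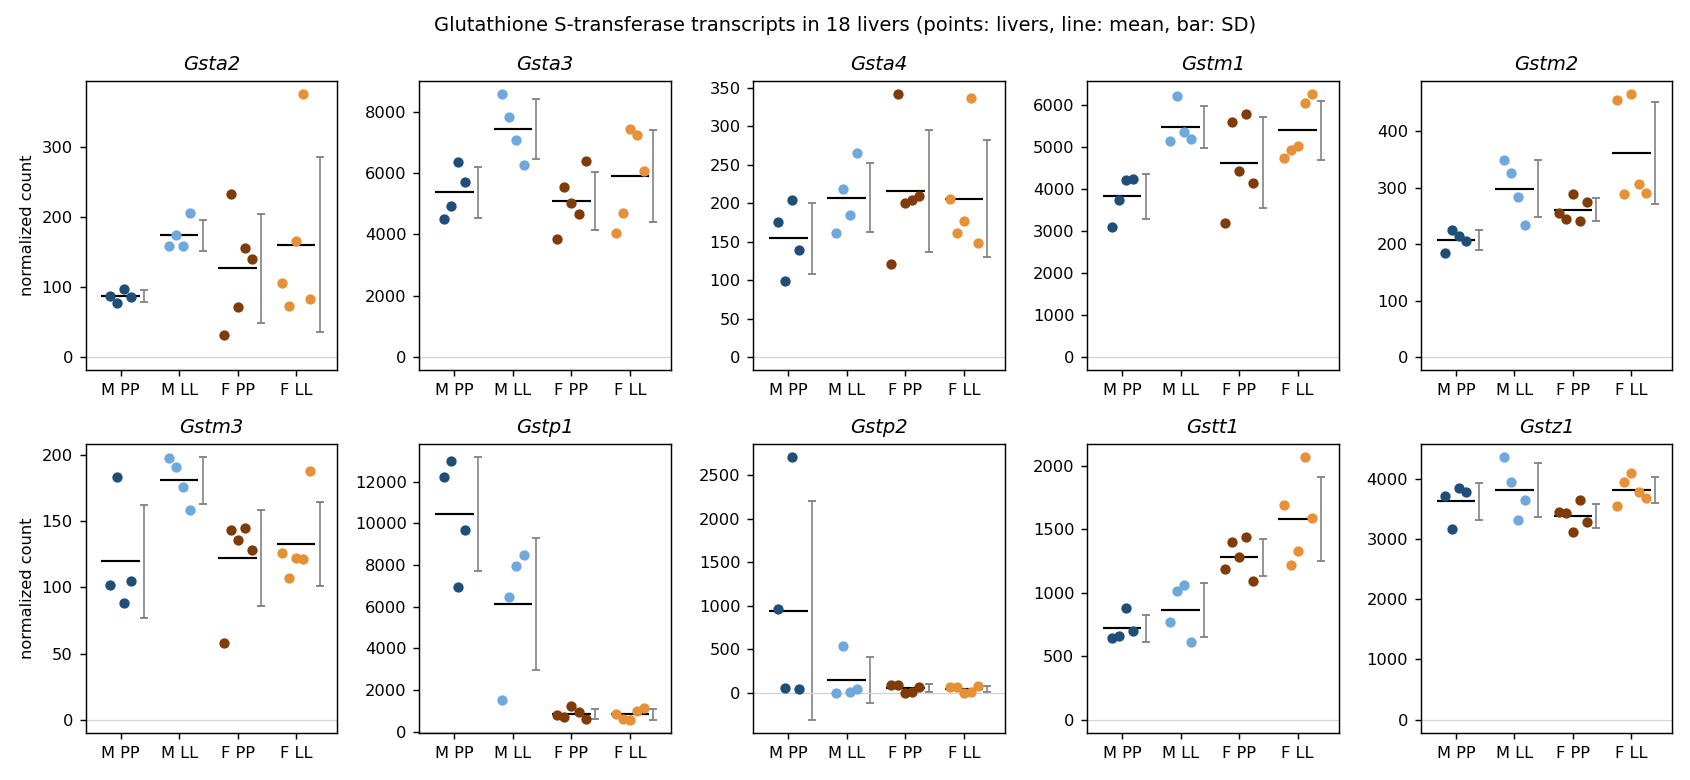
Normalized counts of the 10 genes in male (M) and female (F) PP and LL livers, on linear axes. Points are livers, horizontal lines are group means and grey bars are 1 SD, and Gstp1 and Gstt1 are the genes whose male and female points do not overlap over both genotypes together.

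The effect of the LL genotype was asked in each sex with DESeq2, a gene being called when its adjusted P was below 0.05 and its fold change was at least 1.3 or at most 0.7. In males 0 of the 10 members were called, against 0.283% of all genes tested. The unadjusted p was below 0.05 for 5 members, compared with 7.81% of all genes. The quasi-likelihood test of edgeR called 0 members, but only 3 of all genes, so this adds little. The log2 fold change (LL against PP) was positive for 8 members, with Gstt1 and Gstz1 turning negative when transcript length was taken into account. The median over members was 0.45, against 0.00 over all genes tested. The values of every male LL mouse lay above those of every male PP mouse for 3 members (Gsta2, Gstm1 and Gstm2), against 1.8% of all genes, and below for 0 members, against 2.27% of all genes.

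In females 0 members were called as well, against 0.658% of all genes, with an unadjusted p below 0.05 for 2 members (Gstm2 and Gstz1) and for 13% of all genes. The log2 fold change was positive for 7 members with a median of 0.19, but Gsta2, Gsta3, Gstm1 and Gstz1 turned negative both when transcript length was taken into account and on the TPM scale. Every female LL mouse lay above every female PP mouse for 1 member, Gstm2, against 1.5% of all genes. No member was lower in every female LL than in every female PP mouse, against 1.16% of all genes. The fragment lengths that differed between female PP and LL libraries are given above, and their part in these differences was not tested beyond the fits with fragment length or transcript length as a term. Summed Kupffer cell or macrophage markers did not overlap between the female genotypes, at 967 to 1159 normalized counts for PP and 582 to 919 for LL. In males the cholangiocyte markers did not overlap, at 75 to 118 for PP and 55 to 73 for LL. Only 1 of the 6 cholangiocyte markers had enough counts to be tested. The part of these cell types in the genotype differences was not tested.

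Averaged over the sexes, LL against PP, 1 member was called, against 0.978% of all genes tested. This was Gstm2, described with its class. The genotype by sex interaction called 0 members, against 0.119% of all genes, and no member had an unadjusted p below 0.05. In this contrast edgeR called 0 of all genes, so its 0 calls among the members add no information. The male, female and averaged comparisons share their mice and are not independent of each other.

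**Figure D3:**
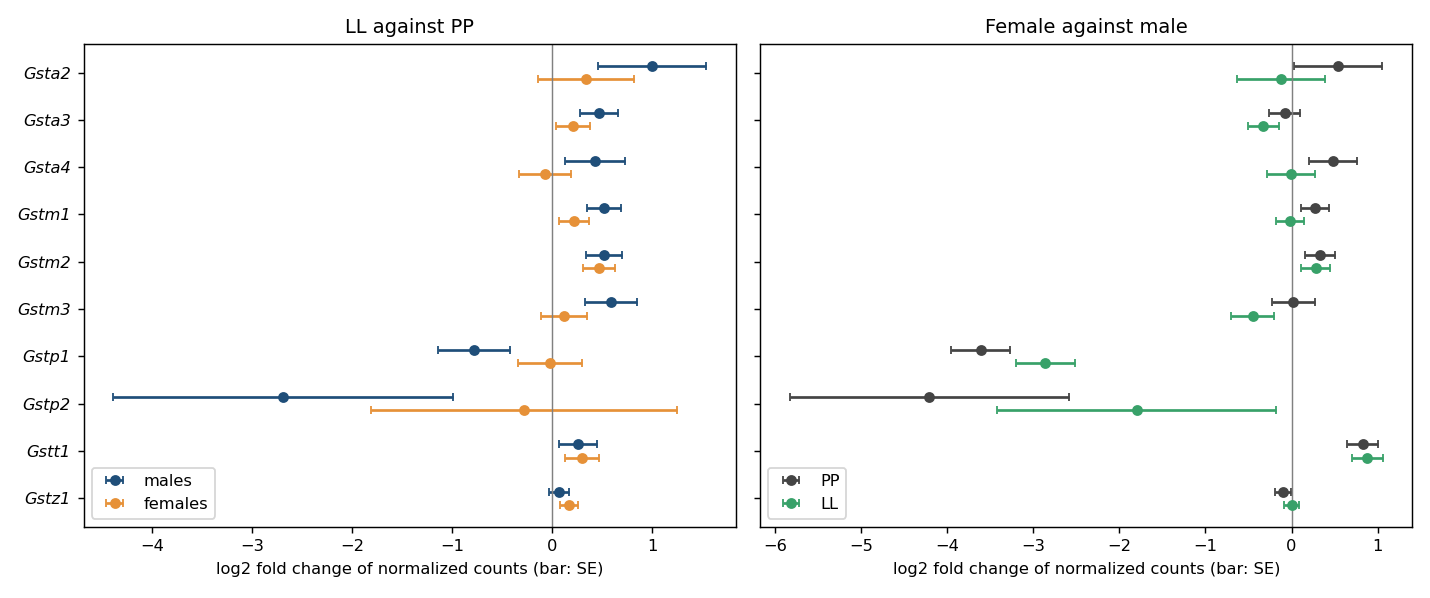
Log2 fold changes of normalized counts with their SE for the 10 genes, LL against PP in males and females on the left and female against male within each genotype on the right. Gstp1 lies at -3.61 and -2.86 and Gstt1 at 0.83 and 0.88 in the comparison of the sexes, while most differences between genotypes lie closer to 0.

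Among the alpha class, Gsta2 encodes an inducible enzyme of liver, Gsta3 a constitutive enzyme that acts on aflatoxin epoxide, and Gsta4 an enzyme for the reactive aldehydes of lipid peroxidation. Gsta2 stood at 86, 78, 98 and 86 normalized counts in male PP 1 to 4 and at 158, 174, 158 and 205 in male LL 1 to 4. The LL values were all higher, and the fold change was 2.00 on average (log2 fold change 1.00 ± 0.54, SE), with a DESeq2 adjusted P of 0.473. In females Gsta2 varied from 32 to 233 in PP and from 73 to 375 in LL mice, so that both groups spanned the male values. Summed with its near copies Gsta1, Gsta5 and Gsta13, the counts were 91 to 127 in male PP and 203 to 304 in male LL mice (log2 fold change 1.12, DESeq2 adjusted P of 0.417).

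Gsta3 (chromosome 1, 21310806 to 21335885, GRCm39) shares little sequence with other genes. It stood at 4512, 4911, 6345 and 5716 normalized counts for PP males and at 8573, 7835, 7088 and 6262 in male LL mice. Male LL 4 fell just below male PP 3, and the other LL mice lay above all PP mice. The log2 fold change was 0.47 ± 0.19 (SE) with a DESeq2 adjusted P of 0.298. In females the values were 3852, 5543, 5034, 4666 and 6376 in PP and 4049, 4706, 7450, 7231 and 6062 in LL mice, and the groups overlapped (log2 fold change 0.21 ± 0.17, DESeq2 adjusted P of 0.613). Gsta4 ranged from 99 to 204 in male PP, 161 to 265 in male LL, 121 to 342 among PP females and 149 to 337 among LL females. Within the groups, Gsta2 and Gsta4 varied together, with a Pearson r of 0.81 between deviations from the group means over the 18 libraries, which share depth and fragment length as sources of such variation.

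The mu-class genes lie in a cluster on chromosome 3. Gstm1 encodes the most abundant mu enzyme of liver, and Gstm2 and Gstm3 encode close relatives with overlapping substrates. Gstm2 (107889004 to 107893785, minus strand, GRCm39) stood at 184, 226, 214 and 206 normalized counts for PP males and at 349, 327, 284 and 234 in male LL mice. In females the values were 256, 245, 289, 242 and 275 in PP and 456, 289, 466, 307 and 290 in LL mice. The groups did not overlap in either sex, although in females the highest PP and the lowest LL value differed by less than 1 normalized count, and the LL mean was drawn up by female LL 1 and 3. The log2 fold change was 0.52 ± 0.18 in males (SE, DESeq2 adjusted P of 0.141) and 0.47 ± 0.16 in females (0.0983). Their difference, the interaction, was -0.05 ± 0.24. Averaged over the sexes Gstm2 was 1.41-fold higher in LL mice (log2 fold change 0.50 ± 0.12, DESeq2 adjusted P of 0.00539). The call was lost with edgeR's quasi-likelihood test (log2 fold change 0.49, adjusted P of 0.0917), with fragment length as a term (0.52, adjusted P of 0.0768), with a transcript length offset (0.32, adjusted P of 0.490) and on the TPM scale with limma (0.44, adjusted P of 0.408). It was kept when any single library was left out.

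Gstm1 (107919380 to 107925380, minus strand) stood at 3090, 3736, 4209 and 4242 normalized counts for PP males and at 5134, 6197, 5347 and 5191 in male LL mice. All male LL values were higher, with a log2 fold change of 0.52 ± 0.17 (SE) and a DESeq2 adjusted P of 0.115. In females Gstm1 overlapped between the genotypes, at 3176 to 5766 in PP and 4731 to 6255 in LL mice (log2 fold change 0.22 ± 0.15). Averaged over the sexes the DESeq2 adjusted P was 0.0477, but the fold change of 1.29 was below the limit of 1.3, so that Gstm1 was not called. With only the male libraries in the fit Gstm1 was called in males (DESeq2 adjusted P of 0.0178), and it was also called there without female PP 1 (0.0349).

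Gstm3 stood at 102, 183, 88 and 105 normalized counts for PP males and at 198, 191, 176 and 158 in male LL mice. Male PP 2 was as high as the LL mice and the other PP mice were lower (log2 fold change 0.59 ± 0.26, DESeq2 adjusted P of 0.339). In females it ranged from 58 to 145 in PP and from 107 to 188 in LL mice. Gstm1 and Gstm3 varied together within groups (r of 0.59 over 18 libraries), whereas Gstm1 and Gstm2 did not (r of -0.18), also as a description.

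The pi-class enzymes act on acrolein-like compounds and other small electrophiles, and also bind stress kinases. Gstp1 stood at 12226, 13010, 6968 and 9667 normalized counts for PP males and at 1545, 6485, 7964 and 8467 in male LL mice. Most LL mice lay below most PP mice, and male LL 1, the library with the highest mitochondrial share, was far below the rest. The log2 fold change was -0.78 ± 0.36 (SE, 1.71-fold lower) with a DESeq2 adjusted P of 0.369. Without male LL 1 it was -0.46 with an adjusted P of 0.783. In females the values were 821, 693, 1224, 952 and 604 in PP and 859, 604, 580, 1018 and 1163 in LL mice, and the groups overlapped throughout (log2 fold change -0.02 ± 0.32).

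The values of Gstp2 were uneven within every group. It stood at 966, 56, 2710 and 41 normalized counts for PP males and at 1, 539, 6 and 37 in male LL mice. The same unevenness was seen in females, at 90, 86, 0, 8 and 70 in PP and 67, 64, 0, 5 and 73 in LL mice. Values that differ by over an order of magnitude between mice of 1 group gave a log2 fold change of -2.69 ± 1.70 (SE) in males, with a DESeq2 adjusted P of 0.582. Without male PP 3 it was -1.28 and without male LL 2 it was -6.00, the ends of the range over single libraries left out.

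The transcripts behind these counts were read from the deposited tables. Of the counts given to Gstp2, 68.2% were on the transcript Gstp2-204, which keeps an intron, is 429 bases long and shares 98.5% of its 31-base stretches with other genes. A further 28.2% were on Gstp2-206, of 321 bases, and 1.5% were on the full-length Gstp2-201. Most of the count of Gstp2-204 came from male PP 3, and without that library 75.4% were on Gstp2-206 and 17.1% on Gstp2-204. Male PP 3 had 27.6% of all Gstp1 and Gstp2 counts on Gstp2-204 and male LL 2 had 4.09%, while the other libraries had 0.296% or less. Gstp2-206 took 3.50% to 10.9% of the pair in 8 libraries and 0 in the other 10. Within Gstp1 the division was as uneven, with Gstp1-201 taking from 12.0% to 99.7% of the counts of the pair.

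The sum of the pi-class near copies Gstp1, Gstp2 and Gstp-ps was steadier than its parts in male PP mice. It was 13192, 13065, 9678 and 9708 normalized counts for PP males and 1546, 7024, 7970 and 8504 for LL males. With the copies summed, all male LL mice lay below all male PP mice, against 2.27% of all genes tested singly. No single member did so. The log2 fold change of the sum, -0.87, had a DESeq2 adjusted P of 0.282. For females the sum was 910 ± 209 with the PP and 887 ± 267 with the LL genotype (SD, n = 5 each), with a log2 fold change of -0.04.

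**Figure D4:**
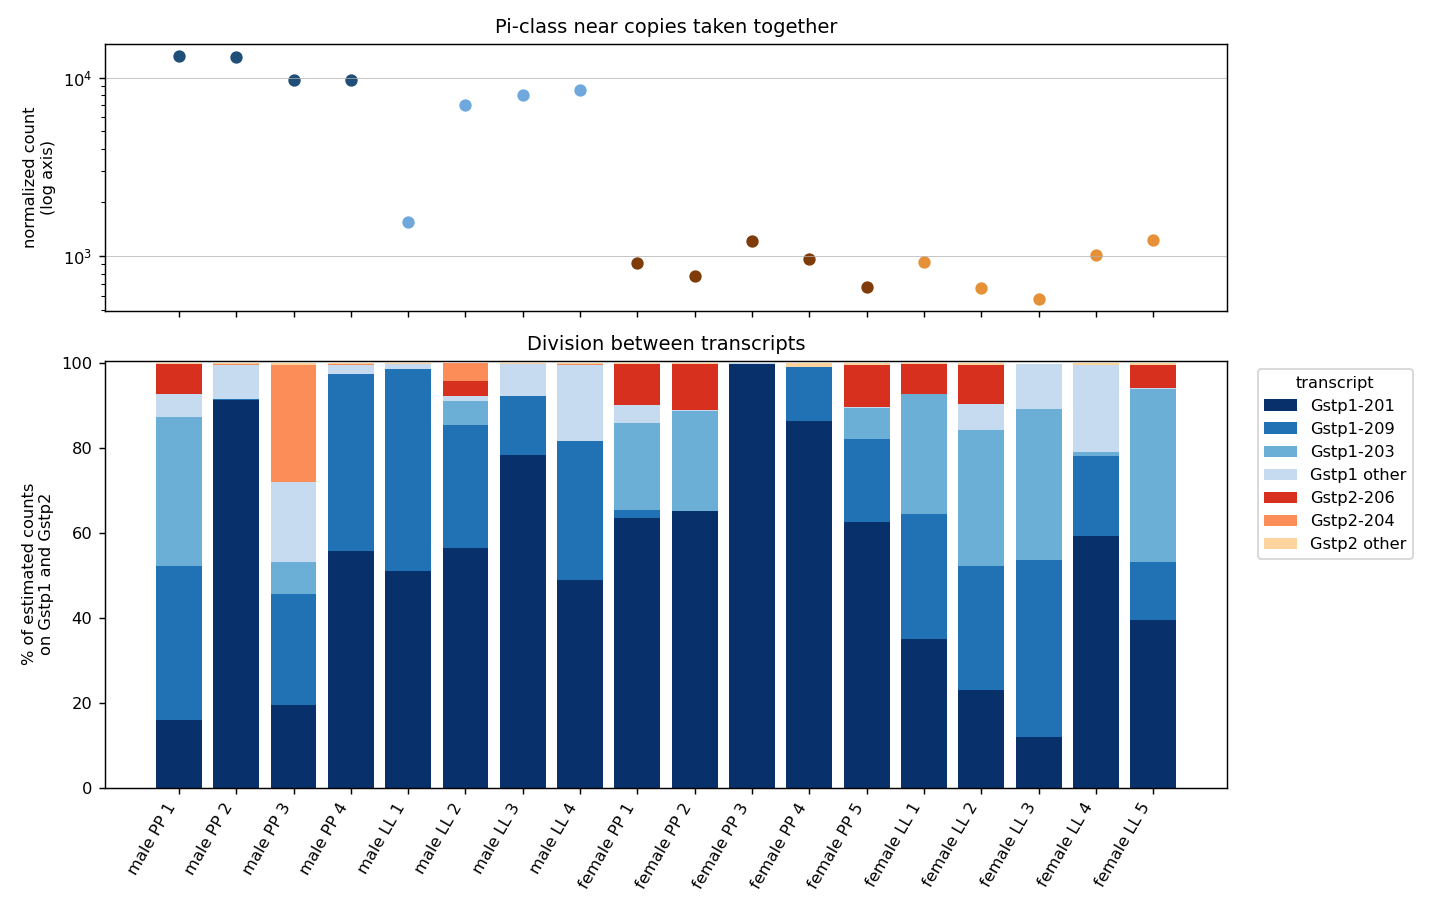
Above, the summed normalized counts of Gstp1, Gstp2 and Gstp-ps in each liver on a log axis. Below, the percent of the estimated counts of Gstp1 and Gstp2 given to each transcript, in which Gstp2-204 stands out in male PP 3 with 27.6% and Gstp2-206 is present in some libraries and at 0 in others.

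Theta and zeta classes had 1 member each. Gstt1 encodes an enzyme that acts on halogenated hydrocarbons. It stood at 642, 659, 878 and 702 normalized counts for PP males and at 769, 1007, 1056 and 610 in male LL mice. In females it stood at 1189, 1404, 1284, 1441 and 1092 in PP and at 1691, 1222, 1326, 2071 and 1592 in LL mice. The genotypes overlapped in both sexes, with log2 fold changes of 0.26 ± 0.19 and 0.30 ± 0.17 (SE). Gstz1 encodes the maleylacetoacetate isomerase of tyrosine breakdown and was the steadiest member, with 3125 to 4359 normalized counts over all 18 livers. Its log2 fold change was 0.07 ± 0.10 in males (SE, DESeq2 adjusted P of 0.860) and 0.17 ± 0.09 in females (0.333).

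The sexes were compared within each genotype, and these comparisons share the male and female groups with those above. Between female PP and male PP mice 2 members were called, 1 higher and 1 lower in females, against 6.45% of all genes. Between female LL and male LL mice the called members were again Gstp1 and Gstt1, against 6.12% of all genes.

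Gstp1 was 12.2-fold lower among PP females than PP males (log2 fold change -3.61 ± 0.34, SE, DESeq2 adjusted P of 2.87e-23). It was 7.24-fold lower in female LL than in male LL mice (-2.86 ± 0.34, DESeq2 adjusted P of 2.81e-14). Every one of the 8 males, from 1545 to 13010 normalized counts, lay above every one of the 10 females, from 580 to 1224, against 1.11% of all genes tested. The difference between the log2 fold changes was 0.75 ± 0.48 and was not past the threshold (DESeq2 adjusted P of 0.628). With the near copies summed the log2 fold changes were -3.65 and -2.82, with DESeq2 adjusted P of 6.68e-26 and 3.44e-15. Gstp2 alone had a log2 fold change of -4.21 ± 1.62 for PP females against PP males, with a DESeq2 adjusted P of 0.0998. It was called with fragment length as a term (-5.36, DESeq2 adjusted P of 0.0124) and with a replicate block (-6.41, 0.00310).

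Gstt1 was 1.78-fold higher among PP females than PP males (log2 fold change 0.83 ± 0.18, SE, DESeq2 adjusted P of 0.000118) and 1.84-fold higher in female LL than in male LL mice (0.88 ± 0.18, DESeq2 adjusted P of 5.31e-05). Males ran from 610 to 1056 normalized counts and females from 1092 to 2071, without overlap, against 0.914% of all genes with every female above every male. With a transcript length offset the difference in PP mice was 0.48 and was not called (DESeq2 adjusted P of 0.157), whereas it was called on the TPM scale with limma and with edgeR. The alpha and mu members, Gstp2 and Gstz1 overlapped between the sexes when both genotypes were pooled, and were not called in either genotype with DESeq2 on counts. Within the PP genotype Gstm2 did not overlap, at 184 to 226 normalized counts for males and 242 to 289 for females (log2 fold change 0.33, DESeq2 adjusted P of 0.285), against 5.21% of all genes with every PP female above every PP male. On the TPM scale, where the median of all genes was itself 0.50 higher (log2) in PP females than PP males, limma called 6 members in that comparison.

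Markers of some liver cell types differed with sex as well. Summed hepatocyte markers were at 474392 to 673852 normalized counts in males and 674822 to 875735 in females. They did not overlap, but the highest male and the lowest female value lay close together. Summed endothelial markers were at 154 to 291 normalized counts in male PP and 305 to 625 in female PP mice, and summed stellate cell or fibroblast markers at 325 to 663 and 796 to 1078. Between LL males and LL females both overlapped, at 219 to 294 and 234 to 435, respectively, for the endothelial markers and at 589 to 899 and 497 to 1043 for the stellate cell or fibroblast markers. Cholangiocyte markers overlapped between PP sexes, at 75 to 118 in male PP and 53 to 117 in female PP mice. Between LL sexes they narrowly did not, at 55 to 73 in male LL and 74 to 137 in female LL mice. Kupffer cell or macrophage markers overlapped between PP sexes, at 510 to 1319 in males and 967 to 1159 in females. They also overlapped between LL sexes, at 472 to 798 and 582 to 919, respectively. Markers of lymphocytes and other leukocytes overlapped between the sexes in both genotypes. The part of cell composition in the differences of Gstp1 and Gstt1 between the sexes was not tested.

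Other genes of glutathione metabolism were read from lists. Of 19 other glutathione transferases 13 were tested, and none was called by genotype within either sex. Averaged over the sexes Gstp3, a further pi-class gene, was higher in LL mice (log2 fold change 0.73 ± 0.22, SE, DESeq2 adjusted P of 0.0473). It was the 1 call of 13, against 0.978% of all genes. The call was lost on the TPM scale, where limma called 0 genes in this contrast, and edgeR called only 9 of all genes. In female PP against male PP mice Gstt3 (1.97 ± 0.26) and the microsomal Mgst3 (1.73 ± 0.31) were higher and the microsomal Mgst1 (-0.60 ± 0.13) was lower, with DESeq2 adjusted P of 6.36e-12, 1.89e-06 and 0.000223, so that 3 of 13 were called, against 6.45% of all genes. Gstp3 itself was at 0.89 ± 0.32 in this comparison (DESeq2 adjusted P of 0.0627), opposite in sign to Gstp1. Between LL sexes 5 of 13 were called, against 6.12% of all genes. Gstt3 (1.44 ± 0.26), Mgst3 (1.61 ± 0.30), Gstt2 (0.78 ± 0.24) and Gstp3 (0.89 ± 0.30, DESeq2 adjusted P of 0.0475) were higher in females. Gsta1 (-2.34 ± 0.71) was lower in females, but its transcripts averaged only 7.04 and 6.41 estimated counts. Of its sequence stretches, 91.9% also occurred in another gene. Summed with its near copies Gsta2, Gsta5 and Gsta13, the difference between LL sexes was -0.42 and was not called (DESeq2 adjusted P of 0.716).

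Genes that make and recycle glutathione showed no call by genotype or between PP sexes among 9 tested. The 4 with the smallest adjusted P between PP sexes were Slc3a2 (log2 fold change 0.31 ± 0.15), a subunit of the cystine transporter, Ggct (0.64 ± 0.32), Gclm (-0.29 ± 0.15), the modifier subunit of glutamate-cysteine ligase, and Gsr (-0.24 ± 0.14), glutathione reductase. Slc3a2 was called between LL sexes, higher in females (0.52 ± 0.16, DESeq2 adjusted P of 0.0188), the 1 call of 9 there. Of 11 tested genes for export of conjugates and mercapturate formation, 0 were called by genotype in either sex. Between female PP and male PP mice Nat8, an N-acetyltransferase of cysteine conjugates, was lower (-4.25 ± 0.46, DESeq2 adjusted P of 4.48e-18) and so was the exporter Abcg2 (-1.43 ± 0.18, 7.25e-13), while Abcc5 was higher (1.84 ± 0.44, 0.000920). Abcc3 stood at 0.72 ± 0.28 and was not called. Thus 3 of 11 were called between PP sexes, against 6.45% of all genes, and 3 of 11 between LL sexes, against 6.12%: Nat8 (-3.38 ± 0.45) and Abcg2 (-1.26 ± 0.18) were lower and Acy3 (0.58 ± 0.17) was higher in females.

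Of 11 other glutathione-dependent enzymes tested, 0 were called by genotype within a sex. Glrx2, a mitochondrial glutaredoxin, was higher in LL mice averaged over the sexes (0.42 ± 0.12, DESeq2 adjusted P of 0.0371). It was the 1 call of 11, against 0.978% of all genes, and was lost on the TPM scale with limma. Between PP sexes Glrx3 was higher in females (0.45 ± 0.14, 0.0229), and Esd, Adh5 and Glrx5 were not called, at -0.22 ± 0.12, -0.14 ± 0.10 and -0.23 ± 0.19. Of 11 NRF2 targets outside the transferases, 0 were called by genotype within a sex or averaged over the sexes. Between PP sexes 2 were higher in females, Cbr1 (0.82 ± 0.22) and the quinone reductase Nqo1 (0.77 ± 0.26), and 2 were lower, Ugdh (-0.84 ± 0.15) and Aox1 (-0.96 ± 0.18). Between LL sexes 0 of the 11 other glutathione-dependent enzymes and 2 of the 11 NRF2 targets were called, Nqo1 (0.78 ± 0.25) higher and Aox1 (-0.83 ± 0.18) lower in females.

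No tested regulator of these genes was called by genotype, among 19. Nfe2l2, which encodes NRF2, was at 167 ± 22.4 (PP) and 195 ± 32.2 (LL) normalized counts among males (SD, n = 4 each), and at 182 ± 17.8 (PP) and 246 ± 39.0 (LL) among females (SD, n = 5 each). Its log2 fold change by genotype was 0.23 ± 0.16 in males and 0.43 ± 0.13 in females (SE), with a DESeq2 adjusted P of 0.0770 in females. Keap1, which encodes the repressor of NRF2, was at 0.11 ± 0.17 and 0.13 ± 0.14. Nr1i3 (CAR) was at -0.21 ± 0.25 and 0.51 ± 0.22 (DESeq2 adjusted P of 0.846 and 0.237), and Nr1i2 (PXR) at 0.12 ± 0.19 and 0.21 ± 0.17. Stat5b, the signal transducer of growth hormone, was at -0.37 ± 0.22 and -0.08 ± 0.18.

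Between PP sexes the female-biased repressor Cux2 was higher (log2 fold change 5.49 ± 0.81) and the male-biased repressor Bcl6 lower in females (-2.09 ± 0.62), at a DESeq2 adjusted P of 1.23e-09 and 0.0147. The growth hormone receptor Ghr had a DESeq2 adjusted P of 0.00608 but a change of -0.44 ± 0.12, within the fold limits, and Cebpb was at -0.78 ± 0.35 (DESeq2 adjusted P of 0.194). Between LL sexes 3 of 19 were called, all higher in females: Cux2 (5.98 ± 1.11, DESeq2 adjusted P of 7.6e-06), Nr1i3 (0.93 ± 0.23, 0.00288) and Stat5b (0.65 ± 0.21, 0.0317).

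Zonation markers were read because GSTs are not even across the liver lobule. Of 11 pericentral and 10 periportal hepatocyte genes, 0 were called by genotype in either sex. The median log2 fold change of the pericentral genes was -0.38 in males and 0.25 in females, and that of the periportal genes 0.20 and -0.18. Between PP sexes the 4 pericentral genes with the smallest adjusted P, Rhbg (-1.14 ± 0.41), Cyp2e1 (-0.49 ± 0.19), Cyp1a2 (-0.53 ± 0.22) and Slc1a2 (-0.38 ± 0.20), were not called. Among the periportal genes Ctsc was higher in female PP mice (1.01 ± 0.19), and Cyp2f2 (-0.53 ± 0.19), Aldh1b1 (0.65 ± 0.28) and Hal (0.54 ± 0.24) were not called. Between LL sexes the pericentral gene Oat (0.61 ± 0.21) was higher in females, and of the 10 periportal genes Ctsc (1.01 ± 0.19) was higher and Cyp2f2 (-0.71 ± 0.19) lower.

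For the most abundant member of each class, the genes whose deviations from the group means ran closest to it were sought among 5645 genes with a mean of at least 50 normalized counts. Over the 18 libraries these were Ugt2b34 for Gsta3 (Pearson r of 0.91), followed by Afmid (0.90) and Gpd1l (0.88). For Gstm1 they were Mgst3 (0.89), a microsomal transferase, Adh1 (0.87) and Hpd (0.84), and for Gstt1 they were Khk (0.83), Fxyd1 (0.81) and Ndufb4c (0.81). For Gstp1 they were Aopep (0.93), Napa (0.92) and Rpl41 (0.92), which without male LL 1 had r of 0.85, 0.75 and 0.80. For Gstz1 they were Ei24 (0.82), Bche (0.82) and Immt (0.79), and the r between Gstz1 and Gstp1 was -0.70. These values describe how the libraries varied and the points share depth, fragment length and RNA quality.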

How the data were processed

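RNA was sequenced from 18 mouse livers, 1 library per mouse. The authors quantified reads on GENCODE M26 transcripts (GRCm39) with Salmon, for which the submitters' processing notes give version 1.4.0, after FastQC. The deposited tables give, per transcript, an estimated count that is not scaled between libraries and a TPM value scaled to a fixed total in each library. Salmon shares reads among similar transcripts, so near copies can exchange counts.

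Here 137570 of 139225 transcripts, holding at least 99.76% of the counts of each library, were assigned to genes with GENCODE M39, a later release. Estimated counts were summed per gene and rounded. Genes reaching 10 counts in 4 or more libraries (10938) were tested with DESeq2 1.42.0 (Wald test, median-of-ratios size factors) in R 4.3.3. The tool and the call, an adjusted P below 0.05 with a fold of at least 1.3 or at most 0.7, follow the methods of the study. The single fit of all 18 libraries in 4 groups was chosen here, with only the groups compared as an alternative. No fold limit was applied to the interaction. Alternatives used edgeR 4.0.16 (quasi-likelihood test), limma 3.58.1 on log2(TPM + 1), other scalings and filters, length, fragment length, age or replicate terms, merged near copies, and leaving out each library. The fitting code was tested on simulated data.

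Stretches of 31 bases were compared between annotated transcripts. Genes were merged when over 50% of the stretches of either occurred in the other, also where they were linked only through a further gene. Errors are SE for log2 fold changes and SD over mice otherwise. Replicate libraries differed by more than sampling noise (chi-square per degree of freedom 12.3 to 107). Whether same-numbered mice were bred or processed together is not given in the sources used here, and intervals of counting were not used because mice, not reads, were the replicates.

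The members and gene lists were chosen with earlier results of these data known. From each pathway list the text names genes called by genotype within a sex or in the interaction, the 4 with the smallest adjusted P between female PP and male PP mice, and the regulators Nfe2l2, Keap1, Nr1i3, Nr1i2 and Stat5b. Gstp3 and Glrx2, and the genes called between LL sexes alone, were named after their values were seen. Python 3.11.15, scipy 1.17.1 and matplotlib 3.10.9 were used for tables, exact tests and figures.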

Additional observations from a re-analysis of the deposited data

Results flagged for a closer look

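In 40 sets of values, 1 for each gene in each group, 3 had a liver far from the others of its group, and chance flags about 1 in 20 such sets. Gstm3 was lowest in female PP 1, at 58.3 normalized counts, and highest in female LL 5, at 188 normalized counts. Gstp2 was highest in male LL 2, at 539 normalized counts, the male LL library that gave counts to Gstp2-204 and Gstp2-206.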

How the results depend on the processing

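The called differences of Gstp1 between the sexes kept their direction and their call under every alternative run in both genotypes, and so did that of Gstt1 in LL mice, with log2 fold changes of -3.77 to -3.49 and -3.18 to -2.66 (Gstp1) and 0.74 to 0.99 (Gstt1) when single libraries were left out. The number of members called changed as follows. In males it was 1 with only the groups compared and 0 to 1 when single libraries were left out. In females it was 1 with at least 10 counts in all 18 libraries, and 0 to 1 when single libraries were left out, the call being that of Gstm2 without female LL 2 or female LL 5 (DESeq2 adjusted P of 0.0428 and 0.0460). Averaged over the sexes it was 0 with edgeR, with fragment length as a term, with a transcript length offset and on the TPM scale, and 1 to 3 when single libraries were left out, with Gstm1 added without female PP 2, female PP 4, male PP 3, female LL 1, female LL 2 or male LL 1 and Gsta3 added without female LL 1. For PP females against PP males it was 1 with a transcript length offset, 6 on the TPM scale, and 3 with fragment length as a term or with a replicate block, Gstp2 being added (-5.36, DESeq2 adjusted P of 0.0124, with fragment length). For these members the cause was not tested.

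Over all genes, edgeR's quasi-likelihood test called 3 genes in males, 3 in females, 9 averaged over the sexes and 0 in the interaction, where 676 genes had an unadjusted p below 0.05. On the TPM scale limma called 0 in males, in females, averaged over the sexes and in the interaction (unadjusted p below 0.05 in 1745, 895, 1140 and 1657 genes), and 4307 for PP females against PP males. With a transcript length offset the counts were 53 in males and 28 in females. With fragment length as a term they were 14 in females, 44 averaged over the sexes and 432 between LL sexes, and with age as a term 44 in females and 56 averaged. With at least 10 counts in all 18 libraries 127 genes were called in females, and without independent filtering 8 were called in the interaction. Leaving out single libraries gave 20 to 60 genes in males, 28 to 270 in females, 69 to 179 averaged and 3 to 27 in the interaction.

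Among the differences compared by genotype, direction turned only in values that were not called. With a transcript length offset the log2 fold change by genotype was -0.08 for Gstt1 and -0.07 for Gstz1 in males, -0.05 for Gstz1 averaged over the sexes, and -0.41 for Gsta2, -0.16 for Gsta3, -0.15 for Gstm1, 0.12 for Gstp1 and -0.04 for Gstz1 in females. On the TPM scale in females it was -0.19 for Gsta2, -0.27 for Gsta3, -0.15 for Gstm1, -0.04 for Gstm3, 0.11 for Gstp1 and -0.15 for Gstz1, and with fragment length as a term 0.07 for Gstp1. Leaving out single libraries in females gave -0.24 to 0.68 for Gsta2, -0.31 to 0.16 for Gsta4, -0.06 to 0.19 for Gstm3, -0.17 to 0.14 for Gstp1 and -0.60 to 0.04 for Gstp2.

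Nothing in the labels ties mice of different groups beyond a number. Correlations of same-numbered deviations ran from -0.17 to 0.05 in males and from -0.10 to 0.16 in females, not all above 0.1, so the mice were not treated as pairs. With a replicate block 1 member was called in males, Gstm1 (DESeq2 adjusted P of 0.0279), and 2 averaged over the sexes, Gstm2 (0.00896) and Gstm1 (0.0156), while Gstp2 was called between female PP and male PP mice (-6.41, 0.00310). Small groups, uneven fragment lengths and near copies limit how finely members can be told apart.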
